A study of Mus musculus with 3 samples.

Results

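The segmentation clock and Notch genes followed here are 10 genes picked by symbol from the 31054 features of the count tables: the ligands Dll1 and Dll3, the receptor Notch1, the fringe Lfng, the feedback gene Nrarp, the repressor Hes7, and the presomitic regulators Tbx6, Msgn1, Mesp2 and Ripply2. All 10 had UMIs in the kept cells of each of the 3 embryos. Their levels were compared along the step from caudal epiblast to presomitic to somitic cells, and then in the left-right organizer (LRO) and the endothelium, where a few of them were also abundant.

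Somites bud off in pairs from the presomitic mesoderm, which is itself fed by progenitors in the caudal epiblast and primitive streak. In the presomitic mesoderm, Notch, Wnt and FGF signals drive cyclic transcription, and the clock is kept going by delayed negative feedback in which Hes7 represses its own gene and that of Lfng. Delta ligands on 1 cell activate Notch1 on its neighbour, the freed intracellular domain of the receptor acts with the DNA-binding protein RBPJ on target genes, and Lfng adds sugars to the receptor that change its response to ligand. Toward the anterior end, Mesp2 and then Ripply2 mark the next boundary, and cells that enter a somite express Meox1 and Tcf15.

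The samples were 3 whole male wild-type mouse embryos (C57BL/6 x 129 SvEv) of embryonic day 8, per the labels freed of extraembryonic tissue, with 1 single-cell 3′ library each and no treated or mutant group. The data held such tissue all the same, with 269, 1247 and 960 extraembryonic-endoderm-like cells in embryos 1, 2 and 3, all 6 of that class's markers being in over 50% of them. The protocol selected embryos with 0 to 1 somite, while another field of the labels allows up to 2. Of 23533 barcodes, 21595 were kept (5795, 7956 and 7844 in embryos 1, 2 and 3), with medians of 27635, 14615 and 16332.5 UMIs, so that embryo 1 was the most deeply sequenced. Embryos 1 and 2 shared 22 barcode sequences, embryos 1 and 3 shared 18, and embryos 2 and 3 shared 19.

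Cells were put into classes by lists of 6 marker genes, none of which is among the 10 genes: a cell joined the class with most of its markers at 1 UMI or more, with at least 3 of 6 needed. This gave 16789 cells (77.7%) a single class, among them 1566 caudal-epiblast-like cells (markers Nkx1-2, Sox2, T, Wnt3a, Fgf8 and Epha5), 2109 presomitic-like cells (Rspo3, Pcdh19, Pcdh8, Cited1, Lef1 and Mesp1) and 124 somitic-like cells (Meox1, Tcf15, Foxc1, Foxc2, Uncx and Tbx18). Cells tied between neighbouring classes were kept as transition classes, 310 between caudal epiblast and presomitic and 91 between presomitic and somitic. Another 3388 cells with other ties and 1017 with no class were left out. In caudal-epiblast-like cells all 6 own markers were in over 50% of cells, in presomitic-like cells 5 of 6, and in somitic-like cells 4 of 6. Every class in this report was picked by its own markers, with Nkx1-2, Meox1 and Tcf15 required in theirs. Shares of own markers thus follow in part from the rule and are no separate check of a class. The boundaries were soft. Caudal-epiblast-like cells also had 2 presomitic, 1 neural plate and 2 definitive endoderm markers in over 50% of cells, and presomitic-like cells 2 caudal epiblast and 2 somitic markers. Somitic-like cells had 1 presomitic, 1 neural plate and 2 head mesoderm markers at that frequency. Their summed head mesoderm list was at 490 to 632 CPM (UMIs scaled to a total of 1000000 per sum). The part of such mixed cells in the results below was not tested.

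In the mouse genome (GRCm38, GENCODE M21) none of the 10 genes overlaps another of them. Dll1 spans chr17:15367354-15376872 on the minus strand, Dll3 chr7:28293553-28302238 (minus), Notch1 chr2:26457903-26516663 (minus), Lfng chr5:140607320-140615545 (plus), Nrarp chr2:25180758-25183339 (plus) and Hes7 chr11:69120404-69124055 (plus). Tbx6 is at chr7:126781483-126785560 (plus), Msgn1 at chr12:11208360-11208972 (minus), Mesp2 at chr7:79810727-79813439 (plus) and Ripply2 at chr9:87015537-87019917 (plus). Mesp2 lies 16938 bases from its paralog Mesp1, which is one of the presomitic markers, so the class was picked in part by a neighbour of a gene described in it. Dll1, Hes7, Notch1 and Nrarp overlap other annotated genes, and 3 of these 4 overlap a gene on the opposite strand only. The sources used here do not say how the counting used strand.

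RefSeq promoter sequences (GRCm38.p6) were matched for all 10 genes, 11 promoters in all because Dll1 has a pair. The letters TGGGAA, the core that RBPJ binds, were searched on both strands in the 250 bases before each start, and 3 of the 10 genes held them (Lfng, Hes7 and Msgn1), where 21.6% of 32851 promoters of that length did. Those 3 are shown because they carry the letters, in the gene's own direction and cut at the annotated gene start. Capitals mark TGGGAA or its reverse complement TTCCCA.
Lfng (chr5:140607091-140607319, plus strand): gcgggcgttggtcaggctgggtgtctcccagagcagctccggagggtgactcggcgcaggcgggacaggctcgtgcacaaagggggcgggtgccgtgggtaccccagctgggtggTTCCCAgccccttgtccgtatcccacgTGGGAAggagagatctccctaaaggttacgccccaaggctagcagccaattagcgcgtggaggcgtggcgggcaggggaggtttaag
Hes7 (chr11:69120203-69120403, plus strand): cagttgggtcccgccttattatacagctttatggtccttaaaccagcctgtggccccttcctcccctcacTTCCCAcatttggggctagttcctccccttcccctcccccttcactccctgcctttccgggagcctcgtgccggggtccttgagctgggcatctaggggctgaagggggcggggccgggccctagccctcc
Msgn1 (chr12:11208973-11209198, minus strand): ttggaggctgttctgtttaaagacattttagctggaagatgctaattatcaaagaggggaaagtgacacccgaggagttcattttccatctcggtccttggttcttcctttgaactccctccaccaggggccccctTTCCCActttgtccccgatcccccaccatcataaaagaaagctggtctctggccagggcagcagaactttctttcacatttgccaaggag
The letters CACGNG, which HES and HEY repressors can bind, were in 23.5% of all promoters and in those of Dll1, Lfng, Hes7, Mesp2, Ripply2 and Nrarp, with 4 matches in Lfng and 2 in Nrarp, of which a pair in each is 1 position read on both strands. The T-box core AGGTGT was in 11.8% of all promoters and in no promoter of the 10 genes. A match is a description of letters, and no match says only that these letters are not in this window.

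Over all kept cells, Notch1 gave the most UMIs (15262), followed by Hes7 (11760), Dll1 (9346), Tbx6 (8114) and Dll3 (7931), while Nrarp (2899), Lfng (2726), Msgn1 (757), Ripply2 (689) and Mesp2 (270) were rarer. These counts come from transcript ends and were not used to rank the genes by level. The caudal epiblast, presomitic and somitic classes and their transitions held 19.96% ± 4.65 (SD, n = 3 embryos) of the cells. They held 64.1% of the UMIs of Dll1, 64.2% of Hes7, 64.9% of Tbx6, 64.3% of Msgn1, 61.9% of Mesp2, 66.2% of Ripply2 and 59.96% of Dll3. Lfng (43.7%), Notch1 (37.7%) and Nrarp (30.8%) were spread more widely over the other lineages. Not all UMIs outside the 5 classes lay in another lineage. Cells with other ties or no class held 18.6%, 22.5% and 26.3% of the UMIs of Lfng in embryos 1, 2 and 3, and 17.4%, 14.3% and 24.3% of those of Dll1.

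The first question was which of these genes differ between the caudal epiblast and the presomitic mesoderm that forms from it. UMIs were summed per embryo and class, given as CPM, and tested 3 sums against 3 with edgeR's quasi-likelihood test (log2 fold change, standard error SE, Benjamini-Hochberg adjusted p over all genes). Of the 10 genes, 8 were higher in presomitic-like cells, where 5.71% of the 12489 genes tested were higher and 5.55% lower. The 8 were Dll1, Dll3, Notch1, Lfng, Tbx6, Msgn1, Mesp2 and Ripply2, each higher in 3 of 3 embryos with no overlap between the classes. How many of all genes tested lacked such overlap was not counted. Hes7 and Nrarp did not pass the test. The median log2 fold change of the 10 genes was 1.42, beside -0.00 for all genes tested. A sum over a class does not tell apart more cells with a transcript and more transcripts per cell, so the share of cells with a UMI is given where it bears on this.

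Among the ligands, Dll1, the main activating ligand of the presomitic mesoderm, had 29.4, 21.4 and 23.7 CPM in caudal-epiblast-like cells of embryos 1, 2 and 3, and 114, 78.1 and 64.2 CPM in presomitic-like cells. Every presomitic value lay above every caudal epiblast value, and embryo 1 was highest in both (log2 fold change 1.75, SE 0.188, adjusted p = 2.83e-04). Dll3, a divergent ligand that acts inside the cell and dampens Notch signalling, went from 27.4, 26.4 and 24.0 CPM to 78.7, 62.8 and 45.3 CPM (log2 fold change 1.25, SE 0.164, adjusted p = 9.06e-04). The receptor Notch1 went from 31.2, 19.7 and 26.9 CPM to 95.8, 69.4 and 67.9 CPM (log2 fold change 1.55, SE 0.166, adjusted p = 2.80e-04). In presomitic-like cells 65.1% ± 13.2 had a UMI of Dll1, 62.1% ± 13.03 of Dll3 and 66.7% ± 12.8 of Notch1 (SD, n = 3), and 34.6%, 28.2% and 32.7% when each cell was thinned to 5000 UMIs. Erythroid-like cells, which should lack these transcripts, had a UMI of Dll1 in 1.66%, of Dll3 in 1.91% and of Notch1 in 2.41% of 1202 cells, at a median of 15170.5 UMIs against 18595 in presomitic-like cells. Embryos 1, 2 and 3 gave 2, 861 and 339 of the erythroid-like cells, so this background says nearly nothing of embryo 1, the deepest.

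Of the modulators, Lfng had 7.40, 7.15 and 7.27 CPM in caudal-epiblast-like cells and 20.8, 13.1 and 11.4 CPM in presomitic-like cells. The caudal epiblast values were nearly alike and the presomitic ones were led by embryo 1 (log2 fold change 1.05, SE 0.205, adjusted p = 0.00827). The call was lost without embryo 1 (0.75, adjusted p = 0.0509) or without embryo 2 (1.14, adjusted p = 0.0555), and the adjusted p ran from 5.44e-07 to 0.0555 over the 12 alternatives. Nrarp, a small ankyrin-repeat protein that is induced by Notch and helps to take the Notch intracellular domain out of use, had 8.00, 7.04 and 6.73 CPM against 12.8, 10.4 and 6.81 CPM. It was higher in 3 of 3 embryos, but by little in embryo 3, and the classes overlapped (log2 fold change 0.45, SE 0.205, adjusted p = 0.239). With the embryo as a block the adjusted p of Nrarp was 0.00717 (log2 fold change 0.46), and over all alternatives it ran from 0.00717 to 0.633.

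Hes7, the core oscillating repressor, was abundant on both sides of the step. It had 83.3, 83.5 and 71.2 CPM in caudal-epiblast-like cells and 78.5, 74.8 and 62.1 CPM in presomitic-like cells. Each embryo was lower in the presomitic class, while the values of the 2 classes overlapped (log2 fold change -0.16, SE 0.0975, adjusted p = 0.414). With the embryo as a block the same fold change had an adjusted p of 0.00926, and the alternatives ran from 0.00926 to 0.798. Cells tied between the classes had 120, 125 and 81.6 CPM, above both neighbours in each embryo, and 77.6% ± 5.74 of them had a Hes7 UMI (44.0% after thinning) against 64.2% ± 5.45 in caudal-epiblast-like (31.2%) and 54.4% ± 5.68 in presomitic-like cells (27.6%). The tied cells were also the deepest of these classes, at a median of 25550.5 UMIs, and their difference was not tested.

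Of the presomitic regulators, the T-box factor Tbx6, which turns progenitors away from a neural fate, went from 29.6, 27.4 and 28.3 CPM to 82.4, 68.3 and 61.4 CPM. The classes were far apart beside the spread within each (log2 fold change 1.30, SE 0.104, adjusted p = 5.07e-05). Msgn1, a basic helix-loop-helix factor of the posterior presomitic mesoderm, went from 1.63, 1.47 and 3.101 CPM to 6.69, 7.50 and 8.42 CPM (log2 fold change 1.86, SE 0.258, adjusted p = 0.00128). Embryo 3 was the highest in both classes, unlike for Dll1, Dll3, Lfng and Tbx6.

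The boundary genes were rare and concentrated. Mesp2, the transcription factor that sets the next boundary, had 0.163, 0.105 and 0.266 CPM in caudal-epiblast-like cells (7 UMIs in all) and 3.75, 4.25 and 1.26 CPM in presomitic-like cells, 147 UMIs in 99 cells. Its log2 fold change was 4.03 (SE 0.590, adjusted p = 0.00173), 4.71 without embryo 3, and without embryo 1 it was 3.73 with an adjusted p of 0.0763 (9.57e-09 to 0.0763 over 11 alternatives). Ripply2, a co-repressor that ends Tbx6 activity at the boundary, had 1.03, 0.63 and 0.18 CPM against 5.39, 15.8 and 4.77 CPM. Embryo 2 stood well above the others (log2 fold change 3.62, SE 0.603, adjusted p = 0.00354). Without embryo 2 the log2 fold change was 2.88 and without embryo 1 it was 4.67, both still past the threshold. A UMI of Mesp2 was found in 4.68% ± 2.50 and of Ripply2 in 6.81% ± 1.62 of presomitic-like cells (1.47% and 2.79% after thinning), against 0.0832% of erythroid-like cells for either.

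**Figure D1:**
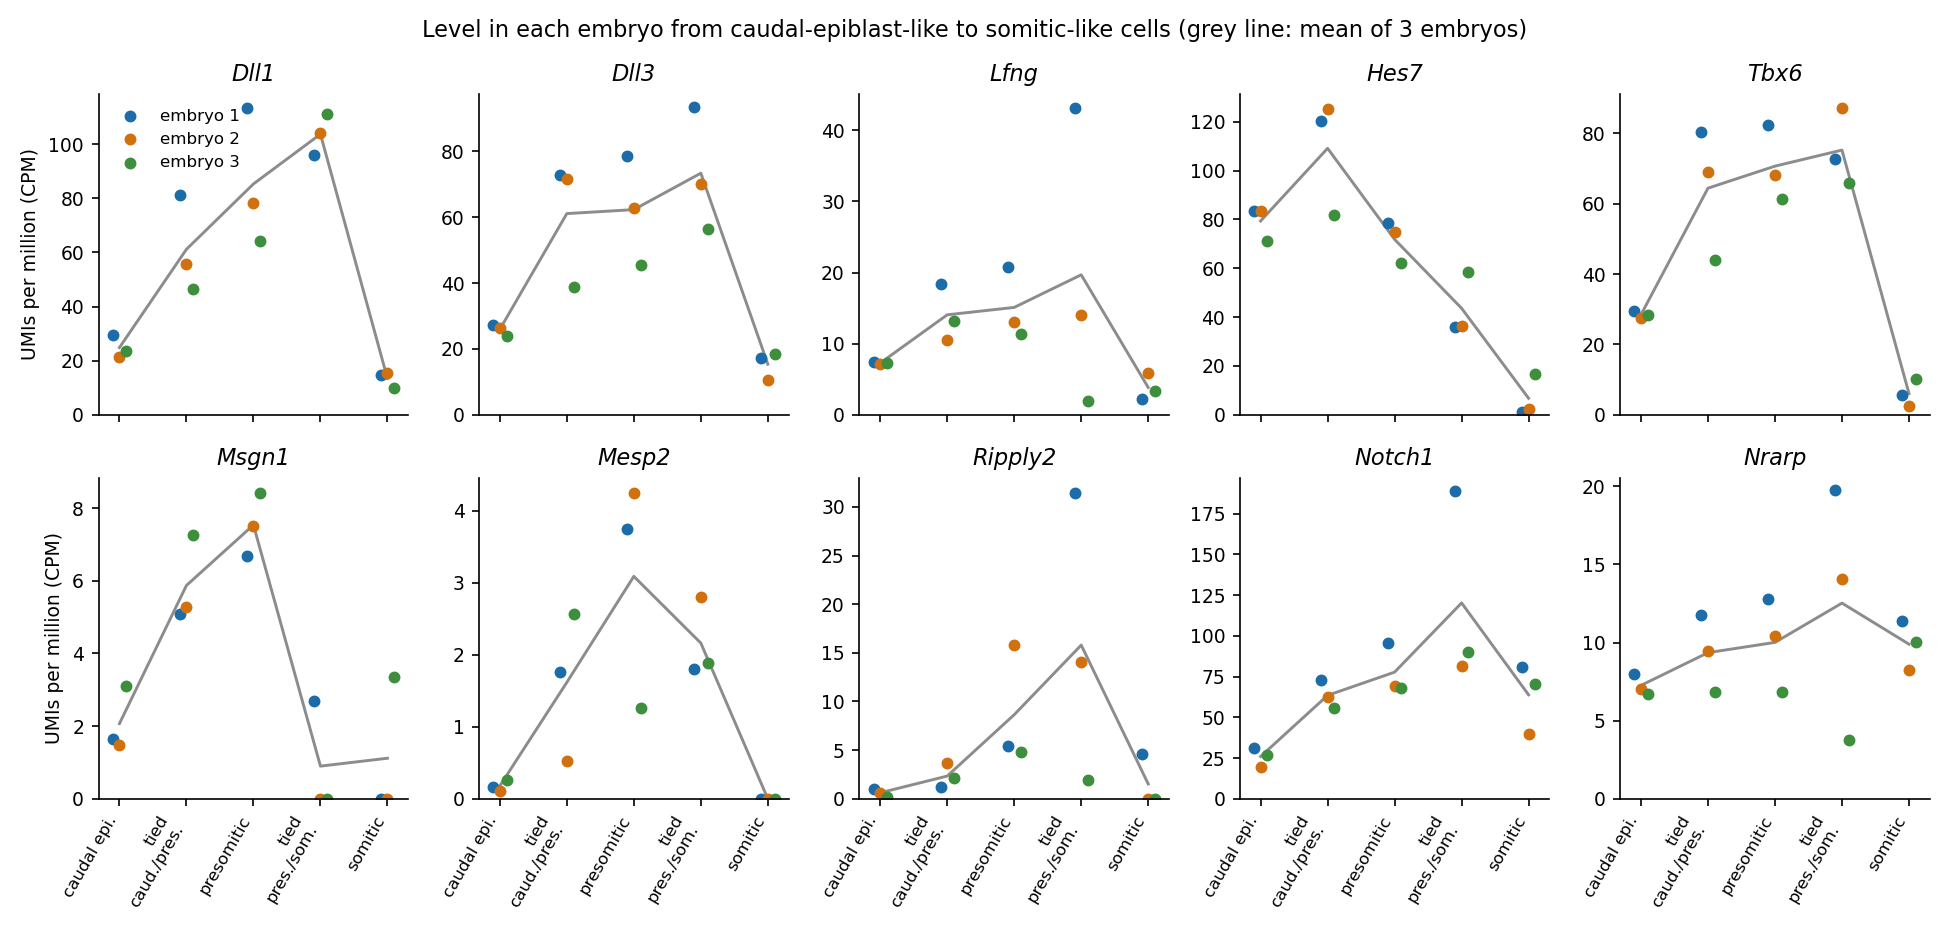
Level of each gene (vertical axes, CPM, linear from 0) in the 5 classes from caudal epiblast to somitic, with 1 point per embryo and a grey line through the mean of the 3. Hes7 peaks in the cells tied between caudal epiblast and presomitic (mean 109 CPM), Msgn1 in presomitic-like cells (7.54 CPM) and Ripply2 in the cells tied between presomitic and somitic (15.8 CPM, with embryos from 1.88 to 31.4).

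The second question was what becomes of these genes as presomitic cells turn somitic. The somitic-like class was small (33, 62 and 29 cells) and had a median of 15823 UMIs per cell. Of the 9 genes that passed the filter on low counts, 6 were lower in somitic-like than in presomitic-like cells, where 1.53% of the 11288 genes tested were higher and 1.66% lower. These were Dll1, Dll3, Lfng, Hes7, Tbx6 and Msgn1, each lower in 3 of 3 embryos. Ripply2, Notch1 and Nrarp did not pass the test, and Mesp2 did not pass the filter. The median log2 fold change of the 9 was -2.28, beside -0.00 for all genes tested.

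Tbx6 and Hes7 fell by the most of the 6, and the differences between their fold changes were not tested. Tbx6 had 5.71, 2.35 and 10.0 CPM in somitic-like cells (13 UMIs), well under every presomitic value (log2 fold change -3.65, SE 0.298, adjusted p = 4.97e-06). Hes7 had 1.14, 2.35 and 16.7 CPM, the last from embryo 3 with 10 of the 13 UMIs (log2 fold change -3.66, SE 0.384, adjusted p = 4.67e-05). Without embryo 3 its log2 fold change was -5.45 and without embryo 1 it was -3.04, both past the threshold. Dll1 had 14.8, 15.3 and 10.0 CPM, with little spread among embryos (log2 fold change -2.63, SE 0.302, adjusted p = 1.11e-04). Dll3 had 17.1, 10.6 and 18.4 CPM (log2 fold change -2.04, SE 0.295, adjusted p = 8.43e-04). Without embryo 2 the adjusted p of Dll3 was 0.0505 (log2 fold change -1.81), the highest over 12 alternatives, with 9.25e-20 the lowest.

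The other calls were less firm. Lfng had 2.28, 5.88 and 3.35 CPM in somitic-like cells, from 9 UMIs (log2 fold change -1.97, SE 0.488, adjusted p = 0.0406). The call was lost without any 1 of the 3 embryos (-1.34, -2.57 and -2.07 without embryos 1, 2 and 3, with adjusted p of 0.274, 0.151 and 0.107), and with 2 UMIs asked of each marker the log2 fold change was -0.57 (adjusted p = 0.608, the highest, with 3.07e-05 the lowest). Msgn1 had no UMI in embryos 1 and 2 and 2 UMIs in embryo 3 (log2 fold change -3.09, SE 0.737, adjusted p = 0.0318), so that without embryo 3 it was at 0 and the fit gave -8.93. It missed the threshold without embryo 1 (-2.52, adjusted p = 0.244), without embryo 2 (-2.45, adjusted p = 0.335) and with DESeq2 (0.0762), over a range from 3.02e-04 to 0.335. Mesp2 had 0 UMIs in 124 somitic-like cells, which allows up to 2.42% of cells with a UMI and sets no limit on cells that express it, and its pooled level was at least 2.42-fold lower than in presomitic-like cells, taking 3 UMIs over the 3 sums as the floor. With no filter on low counts it was lower with an adjusted p of 0.00954, the lowest of 3 alternatives that could test it, with 0.414 the highest. Ripply2 had 4 UMIs, all in 1 cell of embryo 1 (log2 fold change -2.28, SE 1.08, adjusted p = 0.423). With the embryo as a block its log2 fold change was -2.36 (adjusted p = 0.0145) and with no filter on low counts the adjusted p was 0.00267, the lowest, with 0.990 the highest.

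Notch1 stayed at 81.0, 40.01 and 70.3 CPM in somitic-like cells, inside the range of the presomitic values but for embryo 2 (log2 fold change -0.29, SE 0.206, adjusted p = 0.689). Nrarp had 11.4, 8.24 and 10.0 CPM, with embryo 3 above and embryos 1 and 2 below their presomitic values (log2 fold change -0.02, SE 0.365, adjusted p = 0.999). No difference was detectable for the receptor and the feedback gene at this depth (147 and 23 UMIs in somitic-like cells), and whether they differ in response from the ligands was not tested.

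**Figure D2:**
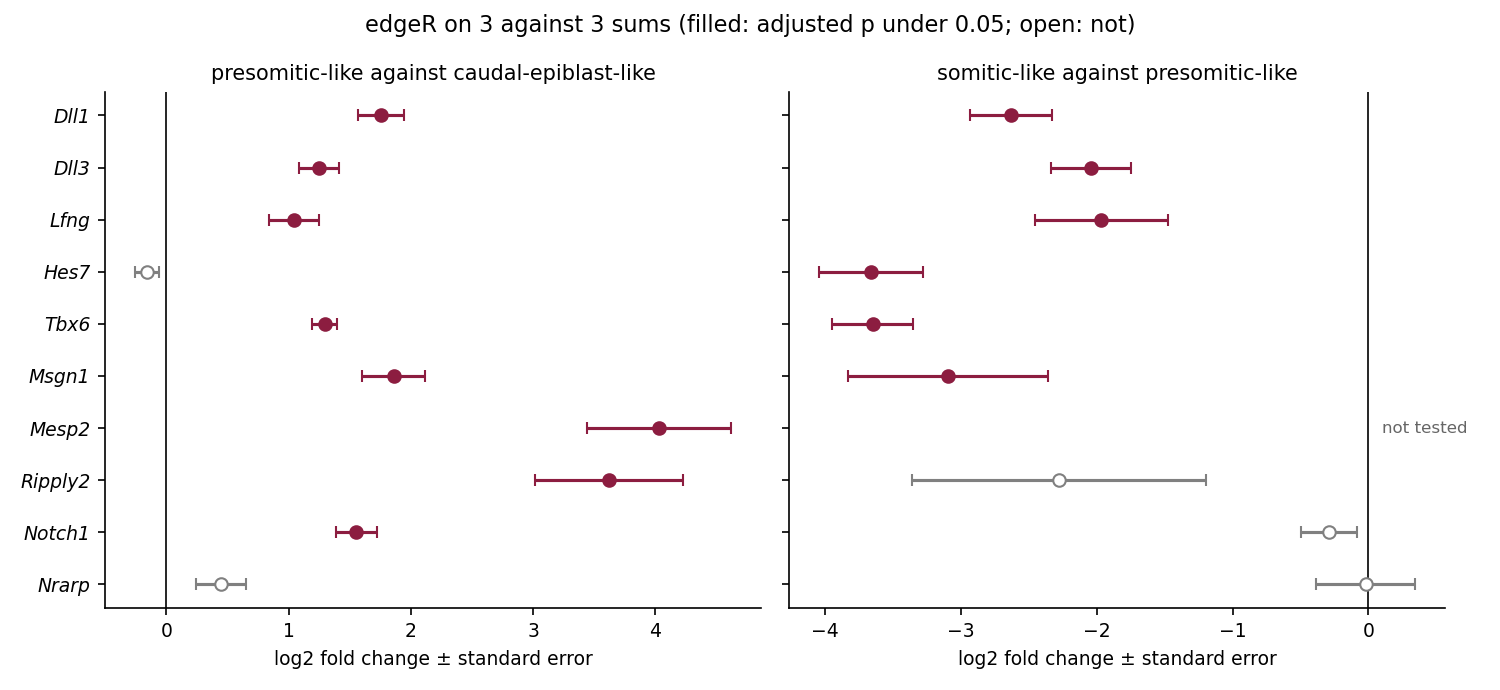
Fitted log2 fold change (horizontal axes, bars ± 1 SE) of each gene between presomitic-like and caudal-epiblast-like cells on the left and between somitic-like and presomitic-like cells on the right, with filled points for an adjusted p under 0.05. On the left the 8 filled points and the open point of Nrarp lie above 0, and Hes7 sits at -0.16. On the right Hes7 (-3.66) and Tbx6 (-3.65) lie furthest below 0 and Notch1 (-0.29) and Nrarp (-0.02) near 0.

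The 91 cells tied between presomitic and somitic, which had UMIs of both Meox1 and Tcf15 by rule, kept some of these genes and had less of others. They had Dll1 at 96.1, 104 and 111 CPM and Tbx6 at 72.8, 87.1 and 65.9 CPM, within or above the presomitic range. Hes7 was at 35.9, 36.5 and 58.3 CPM in them, under its presomitic value in each embryo. Msgn1 had 3 UMIs there, all in embryo 1. Ripply2 had 31.4, 14.0 and 1.88 CPM and Lfng 43.1, 14.0 and 1.88 CPM, so that embryo 1 held most of both. Over the 5 classes the mean level of Aldh1a2, the enzyme that makes retinoic acid in the paraxial mesoderm, went from 71.1 through 203, 517 and 954 to 532 CPM, and that of T, which marks the streak, went from 170 through 179, 85.5 and 16.3 to 8.93 CPM. These classes were described with no test.

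Beyond the 10 genes, the step was read on a list of 42 other Notch pathway genes and a list of 35 genes of somite formation. From caudal epiblast to presomitic, 3 of 39 tested Notch pathway genes were higher and 3 lower, a median log2 fold change of 0.02, beside the 5.71% and 5.55% of all genes. The higher ones were Dlk1 (1.11), a ligand-like membrane protein, Hes5 (0.93), a Notch target, and Maml3 (0.56), a coactivator of the Notch complex. The lower ones were Hes3 (-1.77), another HES repressor, Dtx1 (-1.57), a ubiquitin ligase that binds Notch, and Psen2 (-0.81), a part of the protease that frees the intracellular domain. Of 33 tested somite formation genes, 11 were higher, led by Aldh1a2 (2.84), Lhx1 (2.72) and Snai1 (1.80). The 10 that were lower were led by the FGF target Etv4 (-1.74), the ligand Fgf17 (-1.35), the FGF antagonist Spry4 (-1.14) and Fst (-1.11).

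From presomitic to somitic, the Notch pathway list had 1 gene higher and 1 lower of 36 tested, beside the 1.53% and 1.66% of all genes. The target Hey2 was higher (log2 fold change 2.19, 7.996 ± 2.98 against 1.76 ± 0.298 CPM) and Dlk1 was lower (-2.50). Of 33 somite formation genes, 15 were lower and 4 higher, with a median of -1.02. The lower ones were led by Mixl1 (-4.16), Evx1 (-3.24), Efna1 (-2.98), Cdx4 (-2.81) and Spry4 (-2.16). The 4 higher ones were Cer1 (2.63), a secreted antagonist found in the newest somites, Pax3 (2.06), Fst (1.25) and Efnb2 (1.15).

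Whether the genes were found in the same cells was read in the 2109 presomitic-like cells. The ratio in each embryo is the cells with UMIs of both genes over the number their separate shares give in that embryo. Expected counts were instead taken from the shares over the 3 embryos pooled, and so do not allow for differences between embryos. Mesp2 and Ripply2 were found together in 29 cells where 6.76 were expected, a ratio of 2.83, 6.54 and 3.12 in the 3 embryos. Of the 144 cells with Ripply2, 20.1% had Mesp2, against 4.69% of all presomitic-like cells. After thinning only 6 cells held both, 0 of them in embryo 3. Msgn1 behaved the other way, being found with Ripply2 in 6 cells where 20.96 were expected (ratios 0.28, 0.43 and 0.16) and with Mesp2 in 6 where 14.4 were expected (0.58, 0 and 0.37). The posterior gene was thus found with either boundary gene less often than its share gives, in each embryo. After thinning, 1 cell held Msgn1 with Ripply2 (2.38 expected) and 0 held it with Mesp2 (1.25 expected).

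The other pairs leaned to common detection. The mean ratio was above 1 for 39 of the 45 pairs, with a median of 1.18, and such ratios rise when cells differ in depth or in kind. Pairs of other genes were not counted, and the part of mixed cells in this class was not tested. Hes7 was with Msgn1 in 223 cells where 167 were expected (1.36, 1.24 and 1.35) and with Mesp2 in 42 where 53.9 were expected (0.76, 0.83 and 0.59). Lfng was with Hes7 at a mean ratio of 1.34, with Nrarp at 1.45 and with Ripply2 at 1.92 (1.30, 2.89 and 1.57). Dll1 was with Dll3 at 1.19 and with Tbx6 at 1.17. After thinning to 5000 UMIs, which evens out depth but not a mixture of cells, the mean ratio was above 1 for 39 of the 45 pairs, with a median of 1.34. The thinned ratios were 1.58 for Lfng with Hes7, 1.46 for Hes7 with Msgn1, 0.43 for Hes7 with Mesp2, 1.42 for Dll1 with Dll3 and 1.39 for Dll1 with Tbx6, while Lfng with Ripply2 fell to 0.69 in embryo 1 on 1 cell.

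Common detection was also read without any class, over all kept cells. T, Meox1 and Tcf15 are themselves class markers and the cells are largely the same, so this is no separate support for the order of the classes. Of the cells with a UMI of Msgn1, 80.8% ± 4.70 also had T and 17.7% ± 3.41 had both Meox1 and Tcf15 (SD, n = 3), and after thinning these were 48.6% and 0.53%. Of those with Ripply2, 48.4% ± 5.84 had T and 64.6% ± 6.44 had both Meox1 and Tcf15 (10.4% and 33.6% after thinning). Of those with Mesp2, 41.6% ± 12.8 had T and 60.5% ± 10.96 both somitic genes (27.5% and 31.9%). Hes7 lay with Msgn1, at 74.6% for T and 21.0% for both somitic genes. Over all kept cells the shares were 30.9% and 11.1% (14.2% and 4.10% thinned). The cells with these genes were deeper (a median of 26533 UMIs with Msgn1, 29125.5 with Ripply2) than all kept cells.

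**Figure D3:**
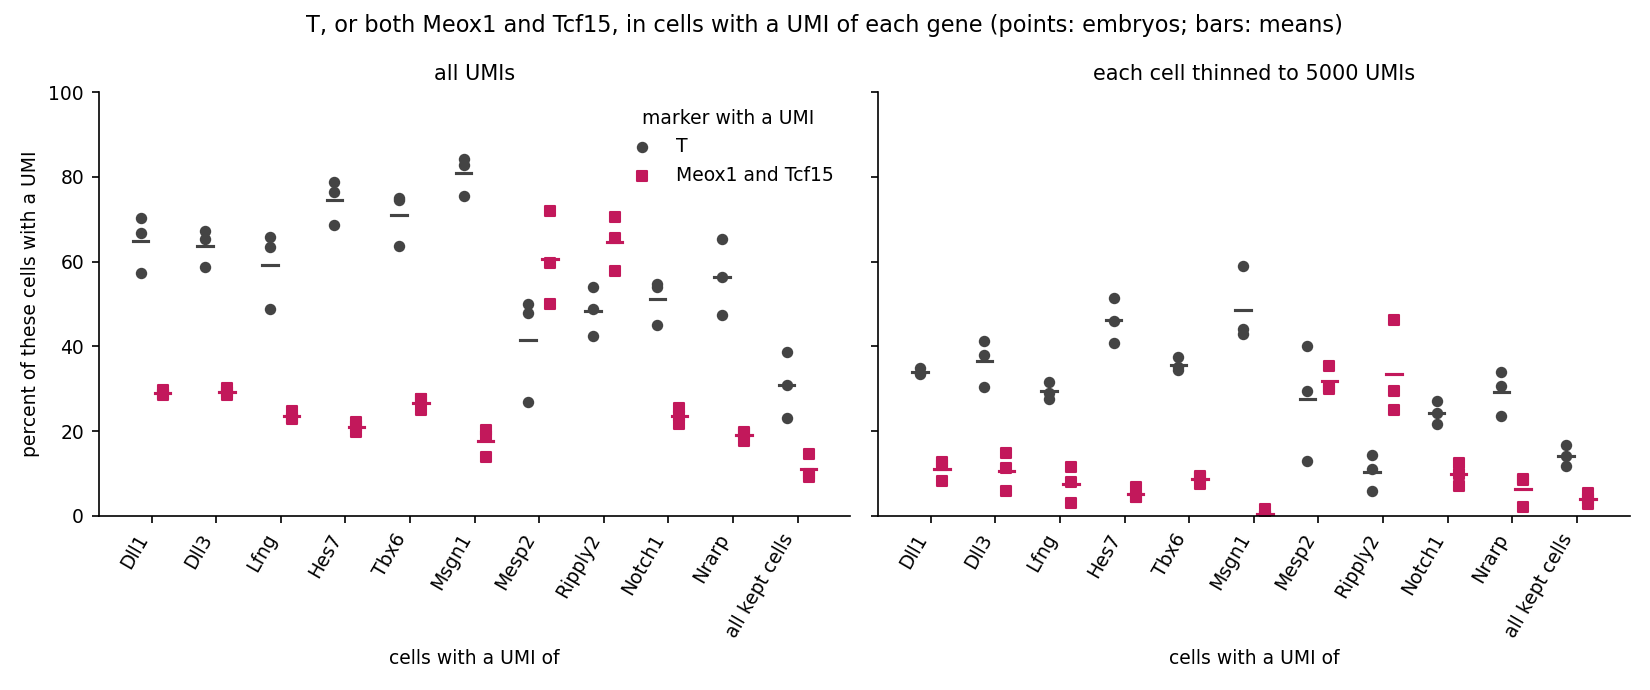
Percent of the cells with a UMI of each gene that also had T (grey) or both Meox1 and Tcf15 (red), over all kept cells, with 1 point per embryo and a bar at the mean, at full depth on the left and thinned to 5000 UMIs on the right. Msgn1 and Ripply2 differ at full depth: 80.8% against 48.4% for T and 17.7% against 64.6% for both somitic genes. Of the 10 genes, cells with Mesp2 are lowest for T at full depth (41.6%), and cells with Ripply2 after thinning (10.4%, with Mesp2 at 27.5%).

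Across the whole embryo, presomitic-like cells exceeded the sum of all other assigned cells for all 10 genes, where 7.69% of 15449 genes tested were higher and 13.6% lower. The log2 fold changes were 4.84 for Mesp2, 4.502 for Ripply2, 3.65 for Msgn1, 3.49 for Dll1, 3.33 for Tbx6, 3.00 for Dll3, 2.23 for Hes7, 2.10 for Lfng, 1.83 for Notch1 and 0.96 for Nrarp (adjusted p from 3.87e-05 for Tbx6 to 0.0221 for Nrarp). With each cell thinned before classing, they were 4.46 for Dll1, 4.30 for Tbx6 and 3.00 for Hes7. The study itself named its presomitic cluster by Tbx6, Dll1, Dll3, Msgn1, Hes7 and Lfng, among others. It also used Rspo3, a presomitic marker here. The 10 genes and the markers were chosen with earlier results of these data known. High levels in presomitic-like cells, here and in the first comparison, thus followed in part from the choice. The call on Nrarp was lost without embryo 2 (0.83, adjusted p = 0.170) and without embryo 3 (1.11, adjusted p = 0.0527), within a range from 5.32e-04 to 0.170. Of the other Notch pathway genes, 5 of 41 tested were higher (Hes5 2.10, Heyl 1.77, Notch4 1.19, Maml2 0.88 and Maml3 0.81) and 5 lower (Dll4 -1.95, Hey2 -0.90, Dlk1 -0.85, Psen2 -0.82 and Hes1 -0.61), a median of 0.04 beside 0.00 for all genes. Of 34 somite formation genes, 21 were higher and 3 lower. In this comparison, as in those of LRO-like and endothelium-like cells below, the rest was a different mixture in each embryo. Embryos 1, 2 and 3 gave it 269, 1247 and 960 extraembryonic-endoderm-like cells and 2, 861 and 339 erythroid-like cells. The part of this in the fold changes was not tested.

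Nrarp had its highest class mean elsewhere, in the LRO-like cells, and was not alone in having more outside the presomitic-like class. Mean Lfng, Hes7 and Notch1 were 23.6, 77.9 and 92.6 CPM in LRO-like cells, against 15.1, 71.8 and 77.7 CPM in presomitic-like cells. Mean Hes7 was also 79.4 CPM in caudal-epiblast-like cells and mean Notch1 111 CPM in endothelium-like cells. LRO-like and presomitic-like cells were not tested against each other. The LRO is the ciliated pit at the tip of the notochord where left and right are set, and Notch signalling there controls Nodal. The class held 161 cells (50, 59 and 52) with UMIs of Noto, Foxj1, Shh, Nog, Pifo and Dand5, all 6 in over 50% of its cells, at a median of 13913 UMIs. Compared with all other assigned cells, 4 of the 10 genes were higher, where 14.3% of 15236 genes tested were higher and 12.2% lower.

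Nrarp had 65.7, 42.1 and 29.2 CPM in LRO-like cells of embryos 1, 2 and 3, against 7.05, 4.73 and 4.86 CPM in the rest. Every embryo was several times higher in the LRO (log2 fold change 2.93, SE 0.269, adjusted p = 1.14e-05). Its next highest classes were endothelium-like and definitive-endoderm-like cells, with means of 15.7 and 15.5 CPM, which differed by less than their spread between embryos. Lfng had 35.8, 14.4 and 20.6 CPM in LRO-like cells against 6.66, 3.83 and 4.36 CPM (log2 fold change 2.16, SE 0.332, adjusted p = 6.68e-04). Hes7 had 104, 72.2 and 57.4 CPM against 27.1, 19.6 and 19.9 CPM (log2 fold change 1.69, SE 0.197, adjusted p = 8.08e-05). Notch1 had 125, 69.8 and 83.3 CPM against 37.2, 21.1 and 28.4 CPM (log2 fold change 1.57, SE 0.229, adjusted p = 4.63e-04). These 4 calls held under all 12 alternatives.

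The ligands and the presomitic factors did not pass in the LRO against all other assigned cells, which include the presomitic-like cells. In the assigned cells other than presomitic-like, the means of Dll1, Dll3 and Tbx6 were 7.77, 7.98 and 7.18 CPM. LRO-like cells had means of 18.8, 25.3 and 21.6 CPM, and this difference was not tested. Dll1 had 28.2, 12.03 and 16.2 CPM, beside 26.1, 13.5 and 13.6 CPM in the rest (log2 fold change 0.01, SE 0.357, adjusted p = 0.995). With cells thinned before classing the log2 fold change of Dll1 was -2.52 (adjusted p = 0.0838, the lowest over 12 alternatives, with 0.999 the highest). Dll3 was higher in 3 of 3 embryos (36.7, 22.9 and 16.2 against 20.3, 12.4 and 11.7 CPM, log2 fold change 0.67, adjusted p = 0.130), and with the embryo as a block its log2 fold change was 0.63 with an adjusted p of 0.0133, in a range from 0.0133 to 0.290. Tbx6 had 31.6, 18.05 and 15.2 CPM (log2 fold change 0.41, adjusted p = 0.304). Mesp2 had 0 UMIs in 161 cells, which allows up to 1.86% of cells with a UMI, Msgn1 had 2 UMIs and Ripply2 3. Of the other Notch pathway genes, 8 of 40 tested were higher, led by Maml2 (2.55), Hes5 (2.44), Notch4 (2.06) and Notch2 (1.56), and Dlk1 was lower (-1.97). The median of that list was 0.06 beside -0.09 for all genes. Of 34 somite formation genes, 11 were higher and 4 lower.

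Within the LRO-like class several of the 10 genes were found more often in cells with a UMI of Nodal, the left-side signal, which was not a marker of the class. Nrarp was found in 45 of 77 cells with a Nodal UMI and in 3 of 84 without, and 136 of its 139 UMIs lay in cells with Nodal. By embryo these were 23 of 33, 11 of 21 and 11 of 23 cells with Nodal, against 0 of 17, 2 of 38 and 1 of 29 without. Cells with Nodal were deeper over all (a median of 16820 against 10239 UMIs), but not in embryo 1 (17566 against 17804). After thinning, Nrarp was in 37.7% of 53 cells with Nodal and in 3.06% of 98 without, by embryo in 12 of 23, 6 of 16 and 2 of 14 against 1 of 27, 0 of 35 and 2 of 36. Embryo 3 thus rests on 2 cells on each side. Hes7 was in 55 of 77 against 23 of 84 cells, Lfng in 35 against 10, Notch1 in 60 against 36, Dll3 in 32 against 19, Dll1 in 18 against 6 and Tbx6 in 26 against 11 (15.1% against 7.14% after thinning). After thinning, the order did not hold for Lfng and Dll3 in embryo 1 (8.70% against 11.1%, and 13.04% against 18.5%) nor for Dll1 in embryos 2 and 3, where no cell with Nodal had a UMI of it. The split was made on these cells and was given no test.

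**Figure D4:**
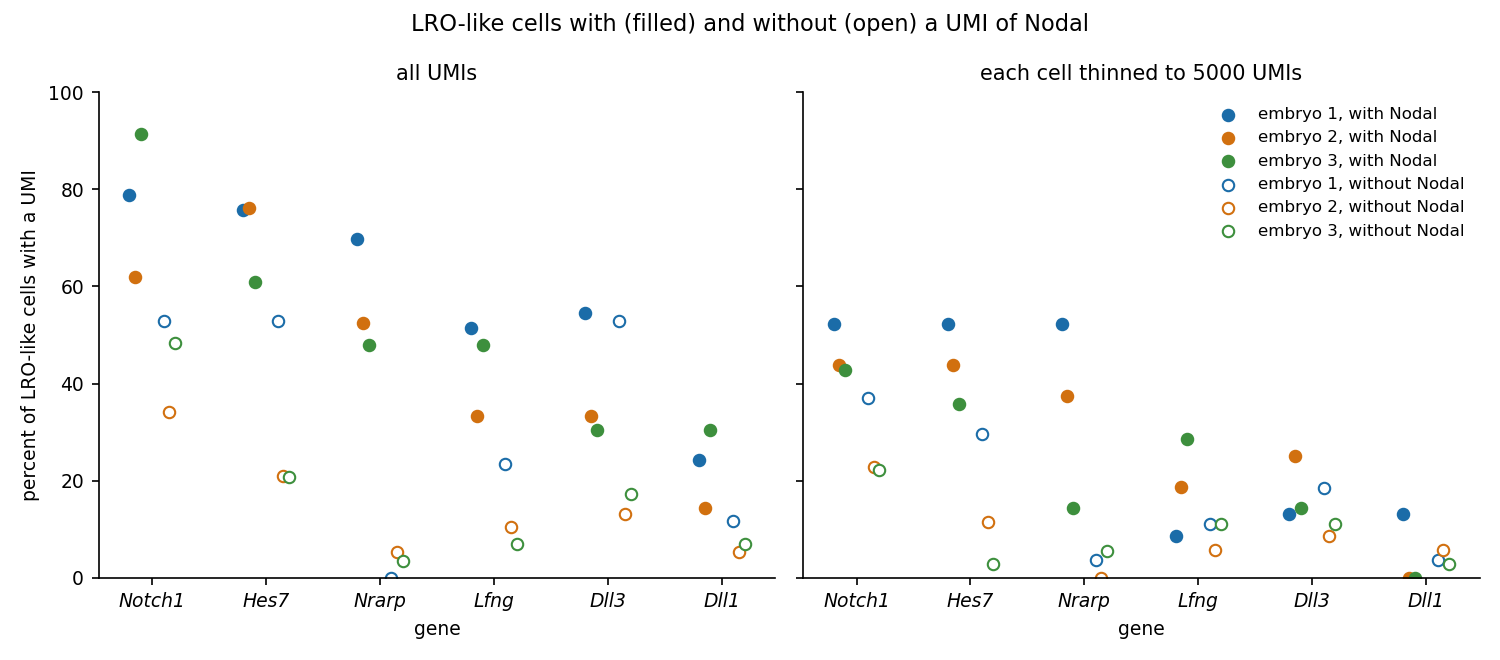
Percent of LRO-like cells with a UMI of each of 6 genes (vertical axis) in cells with (filled) and without (open) a Nodal UMI, 1 colour per embryo, at full depth on the left and thinned to 5000 UMIs on the right. At full depth the cells with Nodal are above those without in each embryo for all 6 genes, with Nrarp nearly absent from cells without Nodal (47.8% to 69.7% against 0% to 5.26%).

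Endothelium-like cells (888, all 6 markers in over 50% of cells) had high Notch1 and, against the rest, low Dll1, Dll3, Hes7, Tbx6, Msgn1 and Ripply2. The rest includes the presomitic-like cells, and the low levels were not particular to the endothelium. Mean Dll1, Hes7 and Tbx6 were 6.04, 6.93 and 4.71 CPM in endothelium-like cells. They were 7.67, 8.72 and 5.87 CPM in head-mesoderm-like cells and 8.74, 8.97 and 6.85 CPM in cardiac-like cells. Against all other assigned cells, 2 of the 10 genes were higher and 6 lower, where 16.6% of 15285 genes tested were higher and 19.7% lower. Notch1 had 129, 106 and 98.9 CPM, the highest class mean but for the presomitic and somitic tie, against 34.0, 18.1 and 24.2 CPM in the rest (log2 fold change 2.18, SE 0.203, adjusted p = 1.15e-04). Nrarp had 14.1, 17.9 and 15.02 CPM against 7.26, 4.497 and 4.398 CPM (log2 fold change 1.59, SE 0.219, adjusted p = 8.47e-04). Both were higher in 3 of 3 embryos.

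Dll1, Dll3, Hes7, Tbx6 and Msgn1 were lower in the endothelium, with log2 fold changes of -1.54, -1.64, -1.67, -1.66 and -1.86 and adjusted p from 0.00154 for Dll3 to 0.0237 for Dll1. With the top 6% of doublet scores removed they were -2.70, -2.27, -2.99, -2.84 and -3.52. Dll1 missed the threshold without embryo 2 (-1.52, adjusted p = 0.0888) and without embryo 3 (-1.35, 0.115), and Msgn1 without embryo 2 (-1.79, 0.0579) and without embryo 3 (-1.44, 0.168), the highest values over their 12 alternatives being 0.115 and 0.168 and the lowest 3.20e-05 and 0.00180. Without embryo 1 the log2 fold change of Msgn1 was -2.51. Ripply2 had 0 UMIs in the 888 cells and was at least 8.09-fold lower than in the rest (adjusted p = 0.0135). Lfng (log2 fold change 0.16, adjusted p = 0.717) and Mesp2 (3 UMIs) did not pass. Of the other Notch pathway genes, 12 of 40 tested were higher, led by the ligand Dll4 (6.21), the fringe Mfng (2.04), the ligand Jag2 (1.65) and the target Hey2 (1.62), and 9 were lower. Of 34 somite formation genes, 3 were higher and 24 lower. The comparisons of presomitic-like, LRO-like and endothelium-like cells with the rest share most of their cells, so their values stand side by side and were not compared.

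**Figure D5:**
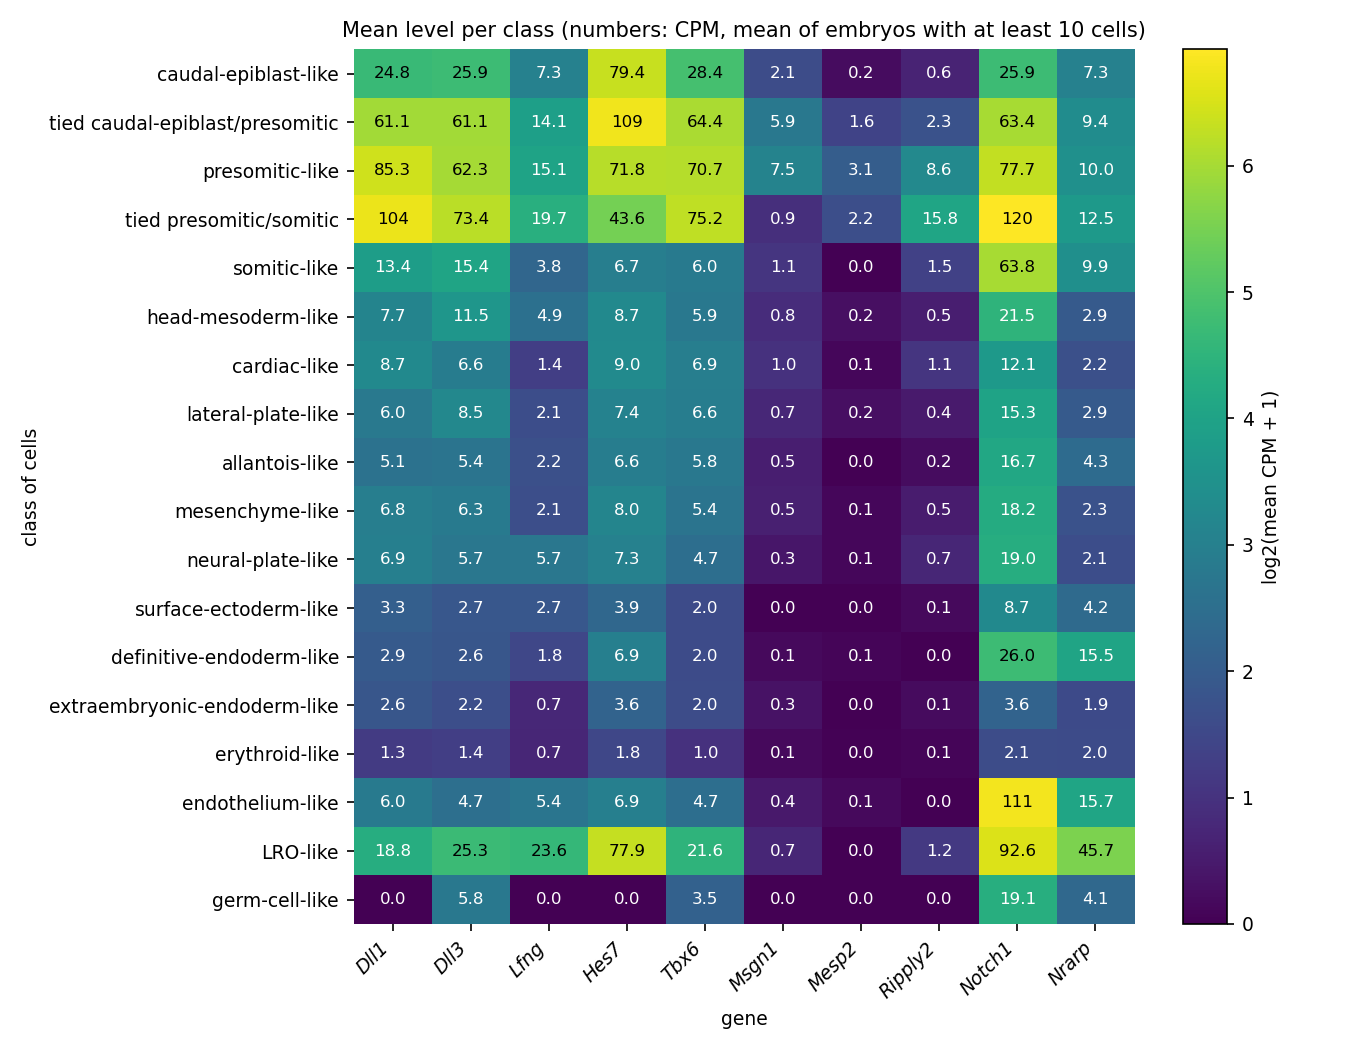
Mean level of each gene (columns) in each of the 16 single classes and the 2 transition classes (rows), with the CPM printed in the cell and coloured as log2(mean CPM + 1). Notch1 has a second peak in endothelium-like cells (111 CPM) and Nrarp its highest value in LRO-like cells (45.7 CPM), while Mesp2 passes 1 CPM only in the presomitic-like class and its 2 ties.

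Over the means of these 18 classes the 10 genes followed each other to different degrees (Pearson r of log2(CPM + 1), a description over classes that share 3 libraries). Dll3 and Tbx6 were closest (0.98), Dll1 and Tbx6 were at 0.93, Mesp2 and Ripply2 at 0.88, and Notch1 and Nrarp at 0.80, while Nrarp was least like Msgn1 and Mesp2 (0.27 for each). In all, 10469 genes had at least 10 CPM in 1 class, and any of the 10 genes and class markers among them were passed over. Of the others, the most like Dll1 were Rhbg (0.94), Srrm4 (0.94) and Draxin (0.93). The most like Dll3 were Sh3gl3 (0.95), Rhbg (0.93) and Srrm4 (0.91). For Tbx6 they were Sh3gl3 (0.94), Gfra3 (0.91) and Rhbg (0.89), for Hes7 Gal (0.93), Fabp7 (0.90) and Fgf4 (0.90), and for Lfng Tceal3 (0.92), Tmem229a (0.92) and Foxb1 (0.90). Msgn1 was most like Smc6 (0.92), Fgf4 (0.89) and Gfra3 (0.89), Ripply2 like Wfdc21 (0.92), Rhbg (0.91) and Srrm4 (0.91), and Mesp2 like Kcnk3 (0.86), Cyb5rl (0.85) and Mrpl37 (0.82). Genes most like Notch1 included Dynlrb1 (0.88) and Heg1 (0.86), and those most like Nrarp were Qrich2 (0.86), Spata6 (0.84) and Stox1 (0.83), each of these 5 with its highest class mean in LRO-like cells. For Dynlrb1 the classes hardly differed, at 157 ± 46.1 CPM in LRO-like and 154 ± 36.9 CPM in presomitic-like cells (SD, n = 3). Only embryo 1 had more of it in LRO-like than in presomitic-like cells.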

How the data were processed

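The authors deposited raw UMI counts per feature and barcode for each embryo, made from 3′ single-cell libraries with Cell Ranger 3.1.0 on mm10 with EGFP added and filtered to called cells. Of the features, 30934 of 31054 were in GENCODE M21. The 10 genes, the marker lists and the pathway lists were chosen with earlier results of these data known.

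Cells with at least 1500 genes, at most 8500, 7500 and 8500 genes in embryos 1, 2 and 3, and at most 10% mitochondrial UMIs were kept, after the study's methods. Cells under 0.5% mitochondrial UMIs were also removed, a step not in those methods, which removed 3 clusters of low mitochondrial share and mixed markers instead. Scrublet (scanpy 1.11.5, Python 3.11.15) called 2 doublets, too few to use, so the top 6% of its scores were removed only as an alternative. Classes were set by 6 markers, with required markers Nkx1-2 for caudal epiblast and Meox1 and Tcf15 for somitic cells. Counts were summed per embryo and class where at least 10 cells were there, and tested with edgeR 4.0.16 (R 4.3.3, quasi-likelihood, TMM, filtered by expression, adjusted p under 0.05) without a block. As the sums of a comparison come from the same 3 embryos, the embryo as a block was the paired alternative. Deviations of same-embryo sums correlated at 0.112 to 0.566. With 3 embryos, p-values measure the spread between these embryos only. The alternatives were DESeq2 1.42.0, its size factors, no filter, the block, leaving out each embryo, thinning to 5000 UMIs (112 shallower cells left out), 2 UMIs per marker, 4 of 6 markers, removal of high doublet scores and keeping cells of low mitochondrial share.

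Named were all 10 genes, pathway genes past the test (at most 6 per list and direction, by fold change), and the 3 genes most like each of the 10 over class means, of which 1 is not reported here. Fitted fold changes are on edgeR's scale, intervals and limits cover counting error only, and 0 value columns were unmapped. The fits were tested on simulated data with 200 genes changed. False calls made up 1.24% (presomitic-like against the rest) to 7.89% (somitic-like against presomitic-like) of the calls. Changes of 1 on the log2 scale were called for 42.1% of such genes in LRO-like cells, the lowest, and for 78.4% between presomitic-like and caudal-epiblast-like cells, the highest. The simulated sums were drawn independently, without the correlation of same-embryo sums. They had fewer genes changed than the 360 to 5545 called in the data, and each gene's spread was taken from a trend. The rates of false and recovered calls therefore need not hold for the data.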

Additional observations from a re-analysis of the deposited data

How the results depend on the processing

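Of the fold changes of the 10 genes over the 5 comparisons and their alternatives, 544 kept their direction and their side of the threshold, 19 lost the call, 5 gained it and 14 turned. Those that turned belong to genes with no call: Nrarp between somitic-like and presomitic-like cells (0.10 with 2 UMIs per marker, and -0.25 to 0.13 without 1 embryo), Dll1 in LRO-like cells (-0.020 with no filter, -0.044 with the embryo block, -2.52 thinned, -0.0012 without high doublet scores, and -0.072 to 0.070 without 1 embryo), Tbx6 in LRO-like cells (-0.58 thinned), Ripply2 in LRO-like cells (0.74 with 2 UMIs per marker, and -8.97 to 0.14 without 1 embryo, where -8.97 is a fit to 0 UMIs) and Lfng in endothelium-like cells (-0.63 thinned, -0.14 with 2 UMIs per marker). The number of genes called between presomitic-like and caudal-epiblast-like cells was 1406, against 3666 with the embryo block, 751 thinned and 461 to 839 without 1 embryo. Between somitic-like and presomitic-like cells it was 360, against 559 with no filter, 654 with the block, 545 with 2 UMIs per marker and 144 to 212 without 1 embryo. For presomitic-like, LRO-like and endothelium-like cells against the rest it was 3282, 4035 and 5545, against 5762 with the block for the first, 3450 thinned for the last, and 1074 to 3393, 2304 to 3046 and 2179 to 5015 without 1 embryo. Leaving out an embryo uses fewer samples, and thinning fewer UMIs. The cause of the other moves was not tested. The share of higher calls moved by over 10 points only for LRO-like cells without embryo 3 (1523 higher and 781 lower). With no filter the median of all genes shifted by -0.17, -0.28 and -0.24 for somitic-like, LRO-like and endothelium-like cells. The embryo block changed no call on the 10 genes other than Hes7 and Nrarp in the first comparison, Ripply2 in the second and Dll3 in LRO-like cells. The shares of presomitic-like cells with a UMI all moved when cells were thinned before classing (Dll1 to 33.7%, Nrarp to 5.57%). Depth limits Mesp2, Ripply2 and Msgn1 most, with 270, 689 and 757 UMIs, and the somitic-like class has 124 cells.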

Other observations

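Smc6, a part of the complex that keeps chromosomes intact during repair, followed Msgn1 over the 18 classes more closely than any other of the 10469 genes searched (Pearson r of 0.92), and it lies on the same chromosome. Smc6 spans chr12:11265886-11319785 on the plus strand (GRCm38), 56913 bases from Msgn1. Its level was 386, 355 and 368 CPM in caudal-epiblast-like cells of embryos 1, 2 and 3, 655, 554 and 531 CPM in the cells tied between caudal epiblast and presomitic, and 532, 503 and 482 CPM in presomitic-like cells. It was 302, 247 and 418 CPM in the cells tied between presomitic and somitic and 211, 246 and 233 CPM in somitic-like cells, and the means of the other classes ran from 131 to 277 CPM. Of the 30 pairs of a gene and a gene most like it, 4 share a chromosome, and the others of these 4 are 44474063 to 128719869 bases apart. The pair was picked after its values were seen, and its closeness was not tested.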
